A study of Mus musculus with 37 samples.

Results

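The genes of the proteasome, the protein complex that degrades ubiquitin-tagged proteins, were followed through the last days of lung development in mice of the strains B6 and A/J. The members were all genes whose symbol is Psma, Psmb, Psmc, Psmd, Psme, Psmf or Psmg and a number, read by probe sets with exactly 1 gene symbol, and by the probe set with the highest mean where a gene has several. The search found 48 genes of the 19938 that the arrays measure in this way. Of these, 31 encode the constitutive proteasome, and 3 (Psmb8, Psmb9 and Psmb10) encode the inducible catalytic subunits of the immunoproteasome. The other 14 are a pair of tissue-specific subunits (Psma8 and Psmb11), 3 chaperones of base assembly, 4 chaperones of core assembly, 4 activators and 1 inhibitor. No filter on low values was applied, so all 48 were tested.

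The core of the proteasome is a barrel of stacked rings. Alpha subunits form the outer rings and gate the entry, and beta subunits form the inner rings, where Psmb5, Psmb6 and Psmb7 carry the sites that cut proteins. A regulatory particle sits on the barrel: its base holds a ring of ATPases that unfold the substrate, and its lid removes the ubiquitin chain. In immune cells, and in other cells under interferon, newly made particles take up Psmb8 in place of Psmb5, Psmb9 in place of Psmb6 and Psmb10 in place of Psmb7. The particle so formed favors peptides that fit MHC class I molecules.

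The samples were right lungs of B6 (C57BL/6J) fetuses on each day of gestation between E15.5 and E18.5 and of B6 pups on the day of birth (PN0), and right lungs of A/J fetuses on each day between E15.5 and E20.5 and of A/J pups at PN0. Neither strain carried a transgene or a treatment, and the series asks how lung maturation runs in strains whose gestations differ in length, B6 having the shorter. Each of the 12 groups has 3 replicates, each a litter from which 3 male lungs were pooled, so p-values measure the spread between litters. Whole lung RNA was read, and in such samples fewer cells of a type and less RNA per cell cannot be told apart.

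All values are log2 values of the array after RMA, a background correction, normalization and summary of probes, and all changes are differences of log2 values, where 1 unit is a doubling. Levels of different probe sets are not compared, since probes differ in their brightness. The markers of lung epithelium averaged 9.31 to 11.43 in all replicates. Heart, liver or upper airway markers stood over 1 log2 unit above the lowest replicate of the group in 9 replicates, 4 from B6 and 5 from A/J, among them replicates 2 and 3 of A/J E20.5. Upper airway markers stand here for a list of esophagus and upper airway markers, which does not tell these tissues apart. Over all probe sets the A/J median was 0.12 higher at E18.5 than at E17.5, so counts that turn on this group are given also after each array was centred on its median.

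The stretches just upstream of the start of the catalytic subunits are shown because the immunoproteasome genes and the genes they replace moved in opposite directions in these lungs. They are the 120 bases before the start in RefSeq (build GRCm38.p6), read 5′ to 3′ on the strand of the gene, and capitals mark the fixed letters of a match to any of 4 motifs searched on both strands. The motifs were TGACNNNGC (the antioxidant response element core), GAAA, NN and GAAA in a row (an interferon response element), TTCNNNGAA (the gamma activated site) and CCAAT, and matches of different motifs overlapped in 0 of the 43 member windows. Psmb8 lies on the plus strand at chr17:34198075-34198194, Psmb9 on the minus strand at chr17:34187331-34187450, Psmb10 on the minus strand at chr8:105938393-105938512, Psmb5 on the minus strand at chr14:54617996-54618115 and Psmb6 on the plus strand at chr11:70525237-70525356. Psmb7 is named only.
Psmb8: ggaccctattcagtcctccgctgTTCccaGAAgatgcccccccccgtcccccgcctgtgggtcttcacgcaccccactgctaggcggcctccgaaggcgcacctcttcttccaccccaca
Psmb9: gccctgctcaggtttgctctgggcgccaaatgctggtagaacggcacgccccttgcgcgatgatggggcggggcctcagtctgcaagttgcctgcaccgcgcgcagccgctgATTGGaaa
Psmb10: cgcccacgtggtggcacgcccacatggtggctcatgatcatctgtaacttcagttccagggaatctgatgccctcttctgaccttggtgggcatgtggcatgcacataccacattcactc
Psmb5: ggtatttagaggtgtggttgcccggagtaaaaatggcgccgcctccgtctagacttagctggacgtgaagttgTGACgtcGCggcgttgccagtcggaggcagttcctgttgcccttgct
Psmb6: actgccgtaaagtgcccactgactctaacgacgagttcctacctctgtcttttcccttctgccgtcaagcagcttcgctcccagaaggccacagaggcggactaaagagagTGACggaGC

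In these stretches Psmb5 and Psmb6 each hold a TGACNNNGC match, which begins 47 bases before the start of Psmb5 and 9 before that of Psmb6. Psmb8 holds a TTCNNNGAA match that begins 97 bases before the start, Psmb9 a CCAAT match on the opposite strand, and Psmb10 none of the 4 motifs. A window of 300 bases (250 before to 50 after the start) was at hand for 40 of the 48 members. Among them TGACNNNGC was found in 6, against 14% of all genes, TTCNNNGAA in 3, against 9.6%, and CCAAT in 14, against 41.1%. The interferon response element was found in 5, against 4.0%. These were Psmb3, Psmd4, Psmd9, Psme1 and Psmg4, and none of them is an immunoproteasome gene. A match is a description of the letters, not a site of binding. In the RefSeq order of genes on chromosome 17, Psmb9 and Tap1 are neighbors, followed by Psmb8 and Tap2, and the Tap genes encode the pump that carries peptides into the endoplasmic reticulum.

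At PN0 the constitutive proteasome stood below its E15.5 level and the immunoproteasome above it, in both strains. In B6, limma at an adjusted p under 0.05 called 7 of the 48 members higher and 28 lower at PN0 than at E15.5, where 24.4% of all tested probe sets were called higher and 26.6% lower. The A/J lungs had 5 higher and 33 lower, beside 25.2% and 25.8% of all probe sets. Among the 31 constitutive subunits the test called 2 higher and 19 lower in B6, with a median change of -0.32, and 0 higher and 25 lower in A/J, with a median of -0.39. Over all probe sets the median change was -0.003 in B6 and -0.04 in A/J. Over the whole course, the F test of limma called a change with time in 43 of the 48 members in B6, beside 60.7% of all probe sets, and in 46 in A/J, beside 69.0%. The members not called were Psma8, Psmb11, Psmd9, Psme2 and Psmg3 in B6 and Psma8 and Psmb11 in A/J.

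**Figure D1:**
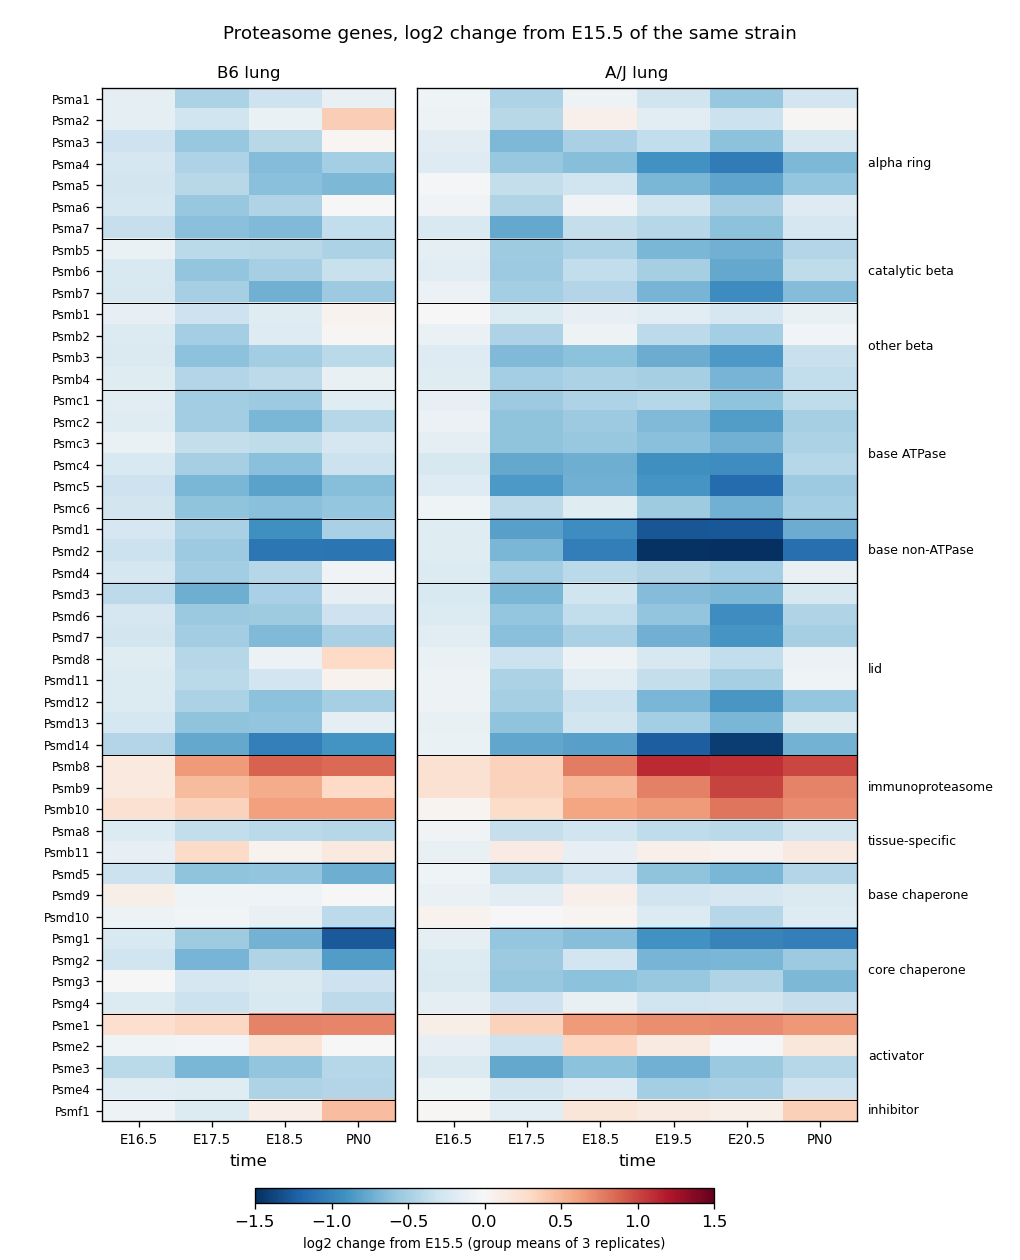
Log2 change from E15.5 of the same strain for each of the 48 members (rows, grouped by role) at each later time (columns), from group means of 3 replicates. The columns of B6 stand on the left and those of A/J on the right. Red rows are the immunoproteasome and Psme1. Psmf1 is blue at E17.5 and red at PN0 in both strains, and most other rows are blue, deepest at E20.5 in A/J for 25 of the 31 constitutive subunits.

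The 3 immunoproteasome genes rose in both strains. Psmb8, which replaces the chymotrypsin-like subunit, read 6.57, 6.55 and 6.56 in the B6 PN0 lungs, against 5.81, 5.52 and 5.79 at E15.5. The A/J lungs read 6.29, 6.98 and 6.63 at PN0, against 5.59, 5.68 and 5.61 at E15.5. No PN0 replicate overlapped with an E15.5 replicate in either strain. The rise was 0.85 ± 0.13 in B6 (SE, limma adjusted p = 1.2e-06) and 1.01 ± 0.13 in A/J (adjusted p = 6.3e-08), with 3 replicates in each group.

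Psmb10, which replaces the trypsin-like subunit, read 7.92, 7.64 and 8.01 in the B6 PN0 lungs, against 7.22, 7.39 and 7.10 at E15.5. In the A/J lungs it was 8.01, 8.04 and 8.03 at PN0, against 7.17, 7.46 and 7.34 at E15.5. The groups again did not overlap, and the rise was 0.62 ± 0.11 in B6 (limma adjusted p = 1.5e-05) and 0.70 ± 0.11 in A/J (adjusted p = 2.1e-06).

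Psmb9, which replaces the caspase-like subunit, behaved less evenly. It read 7.47, 7.45 and 7.46 in the B6 PN0 lungs, against 7.13, 7.09 and 7.26 at E15.5, and its highest B6 value was 7.83 at E18.5. The A/J lungs read 7.38, 7.86 and 7.63 at PN0, against 6.83, 6.78 and 7.02 at E15.5, with the highest value, 7.94, at E20.5. The PN0 replicates were above all E15.5 replicates in both strains, by 0.30 ± 0.10 on average in B6 (SE, limma adjusted p = 0.00933) and 0.75 ± 0.10 in A/J (adjusted p = 6.5e-08). Against the last fetal group, Psmb9 at PN0 fell by 0.26 in B6 (limma adjusted p = 0.0452) and fell by 0.27 in A/J (adjusted p = 0.0483). The fall lost its call without any single one of 10 of the 36 replicates in B6, and of 25 in A/J.

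The rise of the immunoproteasome was spread over several days. The mean of the 3 genes, relative to E15.5 of the same strain, was 0.18, 0.48, 0.69 and 0.59 in B6 over the days E16.5 through PN0. In A/J it was 0.16, 0.32, 0.62, 0.84, 0.97 and 0.82 over the times E16.5 through PN0. The single days that passed the test were E17.5 against E16.5 in B6, for Psmb8 (0.49) and Psmb9 (0.32), and in A/J E18.5 against E17.5 for Psmb8 (0.43) and Psmb10 (0.31) and E19.5 against E18.5 for Psmb8 (0.35) and Psmb9 (0.27). Leaving out the 9 replicates of high heart, liver or upper airway markers leaves 1 replicate at B6 E17.5. The B6 steps to E17.5 were then 0.41 for Psmb8 and 0.27 for Psmb9. Only these sizes are given, since 1 replicate has no spread of its own, and whether the calls hold cannot be read there. The call of Psmb9 at B6 E17.5 was lost after centring (limma adjusted p = 0.0725) and without B6 E16.5 replicate 1 or 3 or B6 E17.5 replicate 2 or 3. Both calls of E18.5 in A/J were lost after centring (Psmb8 adjusted p = 0.0806, Psmb10 0.21) and without A/J E18.5 replicate 1 or 3, and that of Psmb10 also without A/J E17.5 replicate 1 or 2. Both calls of E19.5 were lost without the 9 replicates, with A/J fitted alone and without A/J E18.5 replicate 2 or A/J E19.5 replicate 2, that of Psmb8 also without A/J E19.5 replicate 3 and that of Psmb9 without A/J E18.5 replicate 3. Markers of leukocytes, cells rich in immunoproteasome, rose as well. All 10 markers were called higher at PN0 than at E15.5 in both strains, with a median change of 1.35 in B6 and 1.74 in A/J. Their mean level was 8.36 to 8.41 in the B6 PN0 lungs, against 7.02 to 7.10 at E15.5, and 8.37 to 8.60 in the A/J PN0 lungs, against 6.85 to 6.93 at E15.5. Across birth, 8 of the 10 were called higher in B6 (median 0.51), beside 12.5% of all probe sets. In A/J 0 were called in either direction (median 0.205). In these steps the mean of the 3 immunoproteasome genes went from 0.69 to 0.59 in B6 and 0.97 to 0.82 in A/J. The part of leukocytes in the immunoproteasome values was not tested.

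The constitutive subunits that these replace moved the other way. Psmb5 read 8.83, 8.70 and 8.74 in the B6 PN0 lungs, against 9.23, 9.24 and 9.24 at E15.5, and 8.83, 8.84 and 9.15 in the A/J PN0 lungs, against 9.42, 9.31 and 9.41 at E15.5. The groups did not overlap, and Psmb5 fell by 0.48 ± 0.10 in B6 (limma adjusted p = 0.00022) and fell by 0.44 ± 0.10 in A/J (adjusted p = 0.0006). Psmb7 fell by 0.54 ± 0.07 in B6 (limma adjusted p = 3.4e-08) and fell by 0.65 ± 0.07 in A/J (adjusted p = 9.2e-10). Psmb6 fell by 0.33 ± 0.08 in B6 (limma adjusted p = 0.0012) and fell by 0.38 ± 0.08 in A/J (adjusted p = 0.00025).

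**Figure D2:**
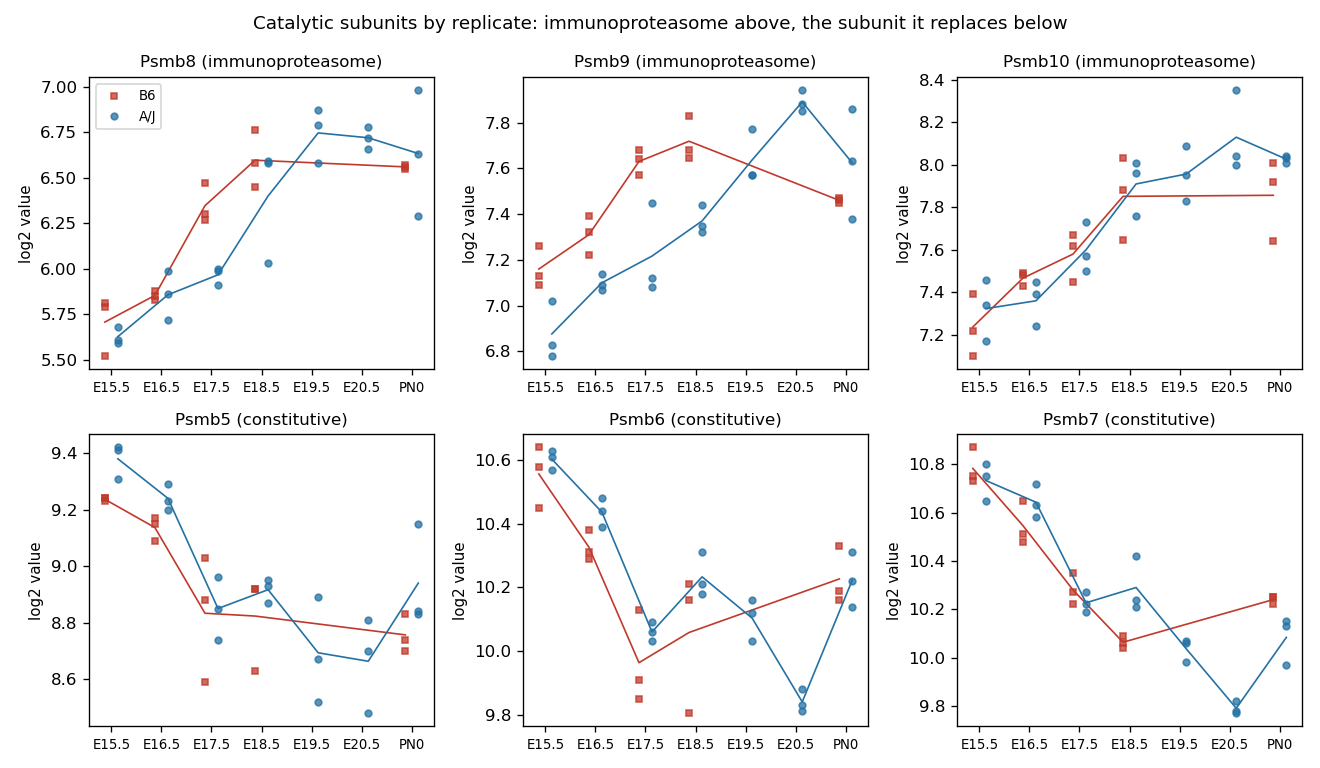
Log2 values (vertical axes) of the 3 immunoproteasome subunits (upper row) and of the constitutive subunit that each replaces (lower row) by time (horizontal axes), with 1 point per replicate, squares for B6 and circles for A/J, and lines through group means. The upper genes are higher and the lower genes lower at PN0 than at E15.5 in both strains, and Psmb9 at E17.5 and E18.5 is higher in B6 than in A/J.

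Set against its constitutive partner within each replicate, and relative to E15.5 of the same strain, Psmb8 gained 1.33 ± 0.06 over Psmb5 in the B6 PN0 lungs (SD, n = 3) and 1.45 ± 0.39 in the A/J PN0 lungs. The gain in A/J was 1.81 ± 0.14 already at E20.5. Psmb10 gained 1.16 ± 0.20 over Psmb7 in B6 and 1.35 ± 0.11 in A/J at PN0, and 1.75 ± 0.21 in A/J at E20.5. Psmb9 gained 0.63 ± 0.08 over Psmb6 in B6 and 1.13 ± 0.29 in A/J at PN0, and 1.78 ± 0.06 in A/J at E20.5. The gain is a change of the difference between a pair of probe sets and not a ratio of the subunits.

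Of the 7 subunits of the alpha ring, 3 were called lower and 1 higher at PN0 in B6 (median -0.12), and 6 lower and 0 higher in A/J (median -0.25). Psma5 had the lowest change among them by the mean of both strains. It read 9.13, 8.93 and 8.93 in the B6 PN0 lungs, against 9.68, 9.70 and 9.62 at E15.5, and 9.0, 9.18 and 9.19 in the A/J PN0 lungs, against 9.71, 9.70 and 9.69 at E15.5. No replicate overlapped, and the changes were -0.67 ± 0.08 in B6 (limma adjusted p = 3.5e-08) and -0.58 ± 0.08 in A/J (adjusted p = 5.6e-07). Psma2 was the member of the ring called higher. It read 9.61, 9.53 and 9.56 in the B6 PN0 lungs, against 9.15, 9.22 and 9.21 at E15.5, a rise of 0.37 ± 0.08 (limma adjusted p = 0.00019). In A/J its 9.35, 9.46 and 9.34 at PN0 overlapped with the 9.45, 9.36 and 9.29 of E15.5 (0.02 ± 0.08, adjusted p = 0.89). Of the structural beta subunits Psmb1, Psmb2, Psmb3 and Psmb4, 1 was called lower in B6 and 2 in A/J. Psmb1 differed between PN0 and E15.5 by 0.05 ± 0.08 in B6 and -0.11 ± 0.08 in A/J, and Psmb2 by 0.02 ± 0.08 in B6 and -0.05 ± 0.08 in A/J, and none of these passed the test.

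All 6 ATPases of the base were called lower at PN0 in both strains, with changes from -0.64 to -0.18 in B6 and from -0.55 to -0.39 in A/J. The lowest change of any constitutive subunit was that of Psmd2, a scaffold of the base on which ubiquitin-carrying shuttle proteins dock. It read 9.91, 9.91 and 9.92 in the B6 PN0 lungs, against 11.07, 10.99 and 10.95 at E15.5. In the A/J lungs it was 9.91, 9.95 and 9.97 at PN0, against 11.10, 11.12 and 11.02 at E15.5. Without overlap between the groups, the change of -1.09 ± 0.07 in B6 (limma adjusted p = 2.8e-15) left 0.47 times the E15.5 signal, and that of -1.14 ± 0.07 in A/J (adjusted p = 8.7e-16) left 0.455 times. A further probe set of the gene changed by -1.05 in B6 and -1.02 in A/J.

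In the lid, 4 of 8 subunits were called lower and 1 higher in B6, and 6 lower and 0 higher in A/J. Psmd14, the metalloprotease that cuts ubiquitin chains off the substrate, fell most. It read 9.67, 9.65 and 9.62 in the B6 PN0 lungs, against 10.58, 10.54 and 10.52 at E15.5, and 9.79, 9.90 and 9.94 in the A/J PN0 lungs, against 10.66, 10.59 and 10.49 at E15.5. The groups did not overlap, and Psmd14 fell by 0.90 ± 0.08 in B6 (limma adjusted p = 1.1e-11) and fell by 0.70 ± 0.08 in A/J (adjusted p = 2.3e-09). Psmd8, another lid subunit, went against the class in B6, with 10.32, 10.43 and 10.34 at PN0, against 10.04, 10.10 and 10.05 at E15.5 (0.30 ± 0.07, adjusted p = 0.00071). The A/J lungs read 10.24, 10.33 and 10.27 at PN0, against 10.45, 10.33 and 10.32 at E15.5, which did not pass the test (-0.09 ± 0.07, adjusted p = 0.346). Psmd11 changed by 0.06 ± 0.07 in B6 and -0.06 ± 0.07 in A/J, neither past the test.

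The assembly chaperones build the particles and are not part of them. All 4 chaperones of core assembly were called lower at PN0 in both strains, with a median change of -0.61 in each. Over the whole course, Psmg3 was not called in B6 by the F test of limma (adjusted p = 0.0906). Psmg1 and Psmg2 act as a pair on the alpha ring. Psmg1 read 7.95, 7.59 and 7.77 in the B6 PN0 lungs, against 9.11, 8.98 and 9.01 at E15.5, and 8.03, 8.15 and 8.22 in the A/J PN0 lungs, against 9.08, 9.33 and 9.05 at E15.5. No replicate overlapped, and these changes left 0.417 times the E15.5 signal in B6 (-1.26 ± 0.10, limma adjusted p = 3.2e-12) and 0.493 times in A/J (-1.02 ± 0.10, adjusted p = 3.4e-10). Psmg2 changed by -0.83 ± 0.10 in B6 (limma adjusted p = 1.5e-08) and -0.54 ± 0.10 in A/J (adjusted p = 2.5e-05). Of the 3 chaperones of the base, 2 were called lower in each strain.

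The activators, caps that open the barrel without the ATPase base, split. Psme1, whose product forms a cap with that of Psme2 and is induced by interferon, read 10.45, 10.31 and 10.35 in the B6 PN0 lungs, against 9.63, 9.64 and 9.63 at E15.5. In the A/J lungs it was 10.32, 10.38 and 10.44 at PN0, against 9.72, 9.73 and 9.73 at E15.5. The groups did not overlap, and the rise was 0.74 ± 0.07 in B6 (limma adjusted p = 1.1e-10) and 0.65 ± 0.07 in A/J (adjusted p = 1.4e-09). Its partner Psme2 was not called in either strain, with -0.01 ± 0.13 in B6 and 0.17 ± 0.13 in A/J. Psme3, the nuclear activator, fell by 0.43 ± 0.09 in B6 (limma adjusted p = 0.0001) and fell by 0.42 ± 0.09 in A/J (adjusted p = 0.00012). Psme4, an activator known from sperm chromatin and DNA repair, fell by 0.44 ± 0.07 in B6 (limma adjusted p = 3.8e-06) and fell by 0.31 ± 0.07 in A/J (adjusted p = 0.0004).

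Psmf1, named as an inhibitor of the core, was 8.68, 8.68 and 8.69 in the B6 PN0 lungs, against 8.21, 8.32 and 8.14 at E15.5, and 8.74, 8.78 and 8.84 in the A/J PN0 lungs, against 8.51, 8.45 and 8.33 at E15.5. All PN0 replicates were above those of E15.5, by 0.46 ± 0.07 on average in B6 (limma adjusted p = 2.5e-06) and 0.36 ± 0.07 in A/J (adjusted p = 0.0001). Psma8, known from testis, lay between 4.13 and 5.45 in all replicates and differed between PN0 and E15.5 by -0.42 ± 0.18 in B6 (limma adjusted p = 0.0476) and -0.28 ± 0.18 in A/J (adjusted p = 0.204). The B6 call was lost without any single one of 27 of the 36 replicates. Psmb11, known from thymus, lay between 5.20 and 6.27 and was called in neither strain.

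**Figure D3:**
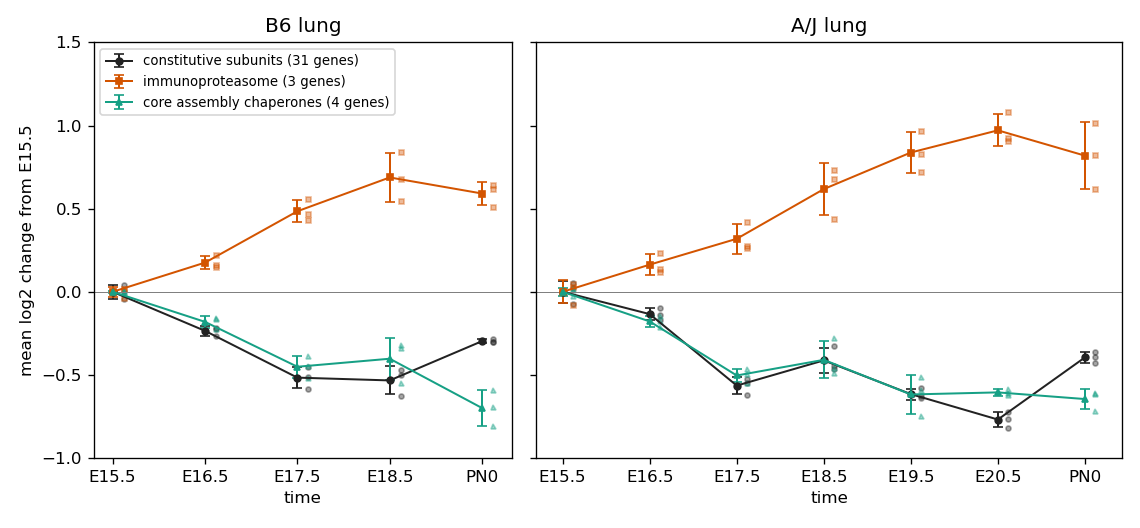
Mean log2 change from E15.5 of the same strain (vertical axis) by time (horizontal axis) for the 31 constitutive subunits, the 3 immunoproteasome subunits and the 4 core assembly chaperones, in B6 (left) and A/J (right). Large symbols are means of 3 replicates with the SD, and small symbols are single replicates. The constitutive line turns up at PN0 in both panels and the chaperone line does not.

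The constitutive subunits did not fall steadily to birth. Their mean, relative to E15.5, was -0.24, -0.52, -0.53 and -0.30 in B6 over the times E16.5 through PN0, and -0.13, -0.56, -0.41, -0.62, -0.77 and -0.40 in A/J. The lowest group mean was on E20.5 for 25 of the 31 in A/J. That of B6 was on E17.5 for 15, on E18.5 for 13 and on PN0 for 3. The core chaperones stayed down, at -0.70 in B6 PN0 lungs and -0.40 on E18.5, and at -0.65 in A/J PN0 lungs and -0.61 on E20.5.

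Day by day, the first fall came in B6 at E16.5, where 18 members were called lower and 1 higher than at E15.5 (7.52% and 6.84% of all probe sets). Psmd14 fell most on that day, and fell by 0.44. One day later 30 members were called lower and 2 higher in B6 than at E16.5 (9.16% and 6.49%), and 26 of the 30 were constitutive subunits. The 18 became 7 without B6 E15.5 replicate 1 or without B6 E16.5 replicate 2, and the 30 became 14 without B6 E17.5 replicate 1 and 19 without B6 E16.5 replicate 1 or 3. Without the 9 replicates of high heart, liver or upper airway markers the 18 became 4, with a median of the constitutive subunits of -0.22, against -0.24 with all replicates. That fit leaves 1 replicate at B6 E17.5, where the median of the constitutive subunits was -0.35, against -0.28 with all replicates. At E18.5, 4 members were called higher and 5 lower than at E17.5 in B6 (12.7% and 11%), with Psmd2 lowest at -0.54 and Psme1 highest at 0.43, and without B6 E18.5 replicate 2 the 4 became 9 and without replicate 3 the 5 became 3.

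In A/J, 0 members were called by limma in either direction at E16.5 (4.69% of all probe sets were called higher and 1.97% lower), although all 31 constitutive subunits were below their E15.5 mean (median -0.14). At an unadjusted p under 0.05 there were 13 lower and 1 higher on that day, beside 10% and 9.71% of all probe sets. The next day, 36 members were called lower and 1, Psme1, higher than at E16.5, beside 15.9% of all probe sets lower and 12.7% higher. Among those lower were 30 of the 31 constitutive subunits, with a median of -0.42, and Psmd14 (-0.68) and Psmc5, an ATPase of the base (-0.68), fell most. At E18.5 the test called 17 higher and 1, Psmd2, lower than at E17.5, beside 26.8% and 4.56% of all probe sets, and after centring of the arrays 8 higher and 2 lower, beside 12.2% and 9.62%. The E19.5 lungs had 21 lower and 2 higher than those of E18.5 (23.7% and 4.56%), after centring 12 lower and 2 higher (14% and 7.18%), and 13 lower and 0 higher without A/J E18.5 replicate 2. The E20.5 lungs had 1 lower, Psmd6 of the lid (-0.34), and 0 higher than those of E19.5, beside 0.509% and 0.197%, and the call was lost without any single replicate of E19.5 and without E20.5 replicate 2 or 3.

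Across birth the constitutive subunits rose together. In A/J, 29 members were called higher and 1 lower at PN0 than at E20.5, beside 12% and 8.09% of all probe sets. All 31 constitutive subunits were above their E20.5 mean, 27 of them called, with a median of 0.37, against -0.02 over all probe sets. All 8 lid subunits were called. Psmd14 led, with 9.79, 9.90 and 9.94 at PN0, against 9.29, 9.11 and 9.08 at E20.5, a rise of 0.72 ± 0.08 (limma adjusted p = 4.7e-08). Psmc5 followed, with 9.51, 9.59 and 9.55 at PN0, against 8.99, 8.94 and 8.92 at E20.5 (0.60 ± 0.08, adjusted p = 2.3e-06), then Psmb3 of the beta ring (0.53) and Psmd1, a scaffold of the base (0.52). No PN0 replicate of Psmd14 or Psmc5 overlapped with E20.5. This step and the change since E15.5 share their PN0 lungs, and the same holds in B6.

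None of the 3 immunoproteasome genes, the 4 core chaperones or the 4 activators was called higher in that step, and Psmb9 was called lower. Heart, liver or upper airway markers were high in A/J E20.5 replicates 2 and 3 and PN0 replicate 2. With all 9 such replicates left out, which leaves 1 at E20.5, whose spread is then taken from the other groups, 7 constitutive subunits were called in place of 27, all 31 were still above 0 and their median was 0.32. Leaving out 1 replicate at a time gave 27 to 31 members called higher.

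In B6 the last fetal group is E18.5, and 17 members were called higher and 4 lower at PN0 than at E18.5, beside 12.5% and 14.4% of all probe sets. Of the 31 constitutive subunits, 16 were called higher and 0 lower, and 28 were above 0, with a median of 0.23, against -0.01 over all probe sets. Psma2 (0.47), Psmd13 of the lid (0.46) and Psma6 (0.45) rose most. Psma2 read 9.61, 9.53 and 9.56 at PN0, against 9.20, 8.89 and 9.21 at E18.5, without overlap. The 4 that fell were Psmg1 (-0.56), Psmg2 (-0.38), Psmd10, a chaperone of the base (-0.28), and Psmb9 (-0.26), and 4 calls became 1 without B6 PN0 replicate 2 and 2 without A/J E16.5 replicate 1 or 3, B6 E15.5 replicate 1, B6 E18.5 replicate 1 or 3 or B6 PN0 replicate 3. Psmf1 rose in both strains, by 0.36 ± 0.07 in B6 (limma adjusted p = 0.00035) and by 0.27 ± 0.07 in A/J (adjusted p = 0.00854). The fetal side of this step is E18.5 in B6 and E20.5 in A/J, so the sizes of the strains were not compared. By the methods of the study, the A/J step spans only hours, from just before to just after birth, and the B6 step a day.

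**Figure D4:**
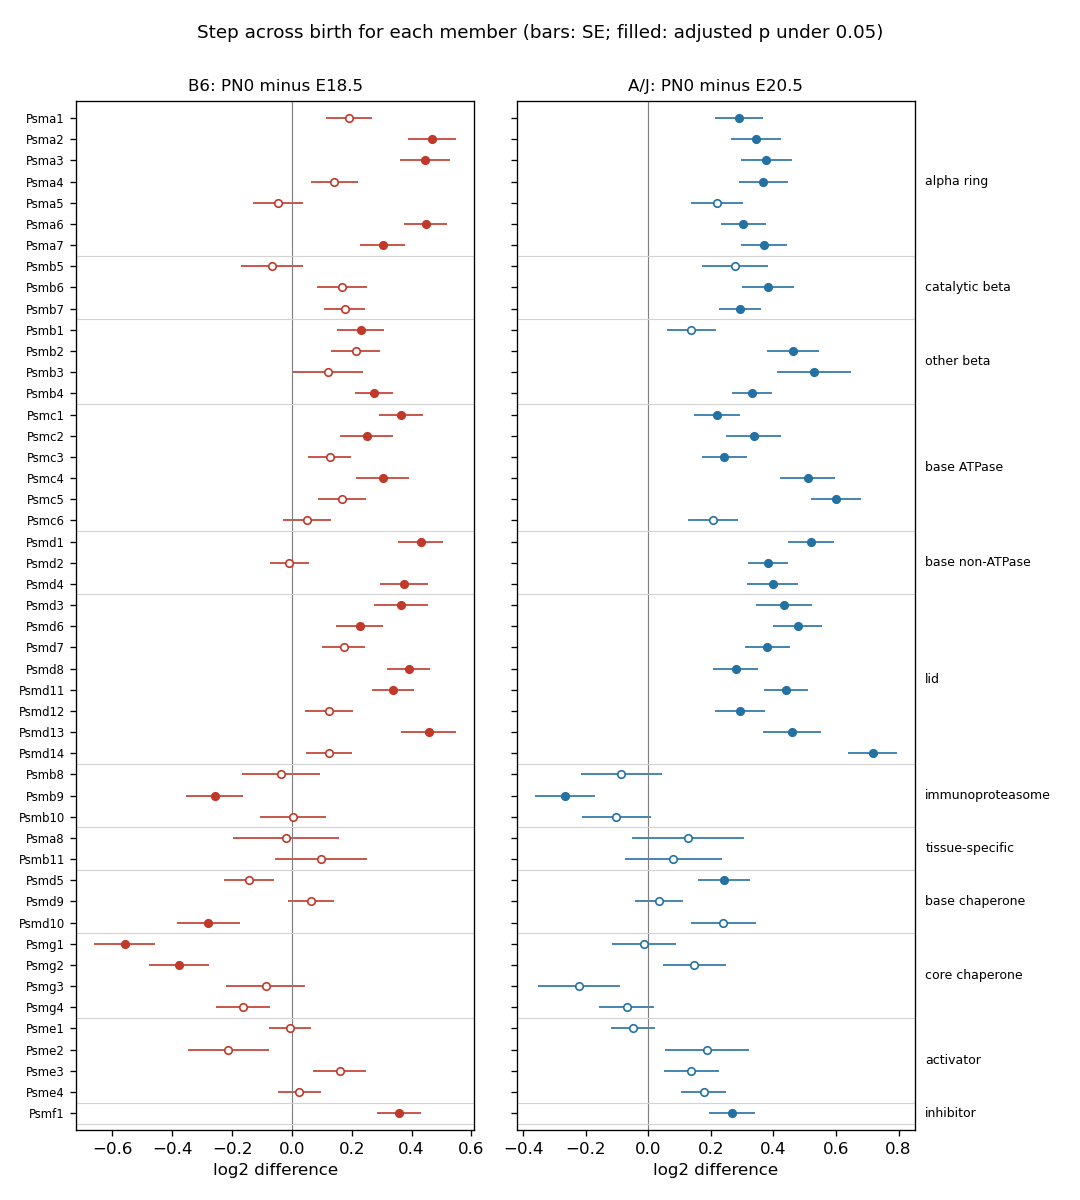
Log2 difference (horizontal axes) of each member (rows, grouped by role) between PN0 and the last fetal group, E18.5 in B6 (left) and E20.5 in A/J (right). Points are differences of means of 3 replicates with the SE of limma, filled where the adjusted p was under 0.05. The constitutive rows lie right of 0, 28 of 31 in B6 and all 31 in A/J.

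Proliferation markers fell between E15.5 and PN0 as the constitutive subunits did. All 11 measured markers were called lower at PN0 than at E15.5 in both strains, with a median of -2.53 in B6 and -3.19 in A/J. Their mean level was 7.67 to 7.76 in the B6 PN0 lungs, against 10.23 to 10.31 at E15.5, and 7.05 to 7.30 in the A/J PN0 lungs, against 10.22 to 10.36 at E15.5. Across birth, 9 of the 11 fell in B6 (median -0.65) and 1, Pcna, rose in A/J (median 0.08), the steps in which the constitutive subunits rose. The part of dividing cells in these values was not tested.

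Between the strains, the members called were mostly lower in B6, and from E16.5 on more of all probe sets were called lower than higher in B6 as well. In the E15.5 lungs, 0 were called higher and 3 lower in B6 than in A/J (1.31% and 1.14% of all probe sets), and a day later 0 and 13 (3.26% and 4.83%). The count was 1 and 3 for E17.5 (4.14% and 6.73%), then 1 and 21 for E18.5 (4.08% and 27.7%), and 0 and 8 for PN0 (6.71% and 13.2%). Over all probe sets the median strain difference at E18.5 was -0.13, and after centring of the arrays 3 members were called higher and 10 lower there, beside 6.9% and 12.2% of all probe sets. Marker genes of other lists differed between the strains as well. Of the 11 proliferation markers, 9 were called lower in B6 on E18.5 (median -0.66) and 8 higher in B6 on PN0 (median 0.64). Esophagus and upper airway markers averaged 5.53 to 6.05 in the B6 E18.5 lungs, against 6.76 to 7.10 in all 3 A/J E18.5 lungs. Of these, 5 of the 8 were called lower in B6 (median -0.89). No E18.5 replicate is among the 9 of high markers, which were picked within groups, so leaving those out does not bear on this difference. The part of the cells that these markers stand for in the strain values was not tested. The 3 of E15.5 became 1 without A/J E15.5 replicate 1 or B6 E15.5 replicate 3. The 13 of E16.5 became 4 without A/J E16.5 replicate 3, 5 without B6 E16.5 replicate 2, and 8 without A/J E16.5 replicate 1 or B6 E16.5 replicate 3. The 8 of PN0 became 4 without A/J PN0 replicate 2 or 3 or B6 PN0 replicate 2, and 5 without B6 PN0 replicate 1 or 3. Where A/J differs from the reference genome in bases under a probe, this and a difference in RNA level cannot be told apart.

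Psmg2 was the member called lower in B6 at all 5 shared times. At E18.5 it read 7.96, 7.82 and 7.89 in B6, against 8.42, 8.47 and 8.42 in A/J, and in the PN0 lungs 7.65, 7.27 and 7.62 in B6, against 8.06, 8.39 and 8.09 in A/J. The strains did not overlap at any shared time. The difference was -0.37 ± 0.10 for E15.5 (limma adjusted p = 0.0354), then -0.46, -0.52 and -0.55 on the following days, and -0.67 ± 0.10 for PN0 (adjusted p = 1.3e-05), the last leaving 0.63 times the A/J signal.

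Psmc4, an ATPase of the base, read 9.36, 9.28 and 9.29 in B6 at E15.5, against 9.88, 9.74 and 9.83 in A/J, and 8.90, 9.09 and 8.97 in B6 at PN0, against 9.38, 9.43 and 9.36 in A/J. The strains did not overlap at either time. It was called lower at 4 of the 5 times, with -0.51 ± 0.09 for E15.5 (limma adjusted p = 0.00048) and -0.40 ± 0.09 for PN0 (adjusted p = 0.00125), and on E17.5 the difference was -0.24 ± 0.09 (adjusted p = 0.0733). Psmd8 was called lower in B6 at each fetal time, with -0.30 for E15.5 and -0.41 for E17.5, but its 10.32, 10.43 and 10.34 in B6 at PN0 overlapped with the 10.24, 10.33 and 10.27 of A/J (0.08 ± 0.07, adjusted p = 0.476). Its call for E18.5 was lost after centring (limma adjusted p = 0.0553).

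Psmf1, Psma7 and Psmd14 were each called lower in B6 at 3 times. Psmf1 differed by -0.29 for E16.5, -0.26 for E17.5 and -0.28 for E18.5, the last lost after centring (limma adjusted p = 0.0835) and without B6 E18.5 replicate 2 (-0.18, adjusted p = 0.0568). Psma7, of the alpha ring, read 8.52, 8.48 and 8.55 in B6 at E18.5, against 9.06, 9.19 and 8.97 in A/J, without overlap (-0.56 ± 0.07, limma adjusted p = 3.1e-06), and differed by -0.35 for E16.5 and -0.36 for PN0. Psmd14 differed by -0.37 for E16.5, -0.24 for E18.5 and -0.23 for PN0. The call for E18.5 was lost after centring (limma adjusted p = 0.222) and without A/J E18.5 replicate 2 or B6 E18.5 replicate 1 or 3 (highest adjusted p = 0.0822), and that for PN0 without A/J PN0 replicate 2 or 3 or any B6 PN0 replicate (highest adjusted p = 0.123).

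**Figure D5:**
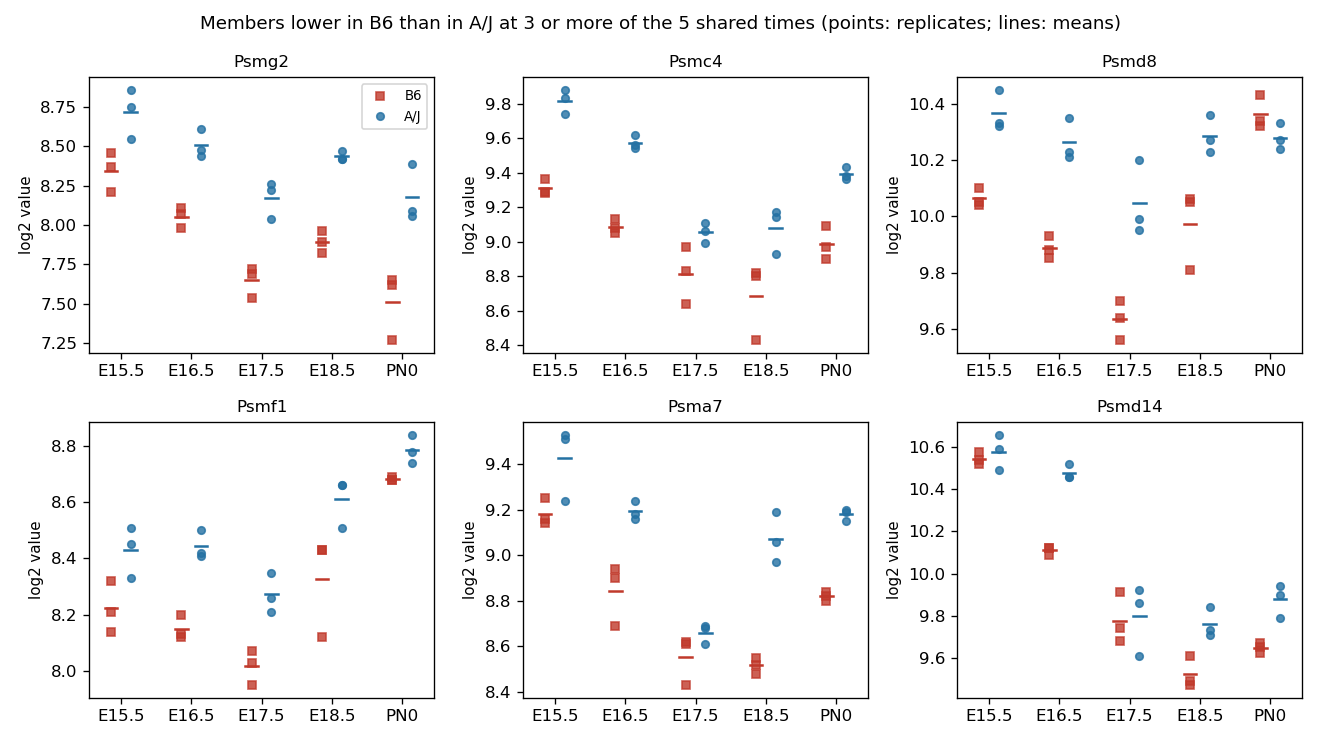
Log2 values (vertical axes) by replicate at the 5 shared times (horizontal axes) of the 6 members that were called lower in B6 in 3 or more of them, with B6 as squares left of A/J as circles and short lines at the means. Psmg2 is separated at every time, and Psmd8 in the 4 fetal groups only. The share of all probe sets called so often was not counted.

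Psmb9 was the member called higher in B6. It read 7.57, 7.64 and 7.68 in B6 at E17.5, against 7.12, 7.08 and 7.45 in A/J (0.41 ± 0.10, limma adjusted p = 0.0054), and 7.83, 7.65 and 7.68 in B6 at E18.5, against 7.44, 7.35 and 7.32 in A/J (0.35 ± 0.10, adjusted p = 0.00697), without overlap at either time. The E17.5 count of 1 member higher became 0 without A/J E17.5 replicate 2. In the E15.5 lungs its 3 B6 replicates were also above those of A/J, without passing the test (0.28 ± 0.10, limma adjusted p = 0.15), and in the PN0 lungs the difference was -0.16 ± 0.10 (adjusted p = 0.259). The other immunoproteasome genes were not called at any shared time. Psmb8 in the E17.5 lungs differed by 0.38 ± 0.13 (adjusted p = 0.0546).

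The change between E15.5 and PN0 itself differed between the strains for 2 members, 1 higher (1.98% of all probe sets) and 1 lower (3.96%) in B6. Psmd8 changed by 0.39 ± 0.10 more in B6 (limma adjusted p = 0.0197), and the difference for Psmb9 was -0.45 ± 0.14 (adjusted p = 0.0467). The call of Psmb9 was lost without any single one of 23 of the 36 replicates, and that of Psmd8 without A/J E15.5 replicate 1 or B6 PN0 replicate 2. With fetal groups matched by days before birth rather than after conception, B6 E18.5 against A/J E19.5, 1 member was called higher (4.78% of all probe sets) and 2 lower (5.15%) in B6. These were Psmd2 (0.32 ± 0.07, adjusted p = 0.00121), Psma7 (-0.49 ± 0.07, adjusted p = 3.6e-05) and Psmf1 (-0.24 ± 0.07, adjusted p = 0.0288), by limma. The count of 2 became 1 without any single A/J E19.5 replicate or without B6 E18.5 replicate 2.

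Genes that work with the proteasome were read as lists. Of 28 listed ubiquitin and proteasome-associated genes, 19 had a probe set of their own. At PN0 against E15.5, 2 of these were called higher and 9 lower in B6 (median -0.14), and 2 higher and 11 lower in A/J (median -0.24). Of all probe sets, 24.4% were called higher and 26.6% lower in B6, and 25.2% and 25.8% in A/J. Uba6, which activates ubiquitin, fell by 1.66 ± 0.09 in B6 (limma adjusted p = 6.7e-16) and fell by 1.17 ± 0.09 in A/J (adjusted p = 2.3e-12), the lowest change of the list. Usp14, a deubiquitinase bound to the base, fell by 1.07 in B6 and fell by 0.86 in A/J, and Pomp, the chaperone of core maturation, fell by 0.42 in B6 and fell by 0.47 in A/J. Zfand5, which activates the proteasome, rose by 0.52 in B6 and 0.69 in A/J, and Ngly1, the enzyme that deglycosylates the transcription factor of proteasome genes encoded by Nfe2l1, rose by 0.45 in B6 and 0.71 in A/J. Nfe2l1 itself was not called, with 0.10 ± 0.07 in B6 and 0.08 ± 0.07 in A/J. Across birth, 5 of the 19 rose and 2 fell in B6, beside 12.5% and 14.4% of all probe sets. In A/J 7 rose and 0 fell, beside 12% and 8.09%. Those of A/J included Uchl5 (0.46), a deubiquitinase of the base, Vcp (0.41), which extracts ubiquitylated proteins, and Usp14 (0.38).

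Of 17 listed genes of MHC class I processing, 14 were measured, and 10 were called higher and 3 lower at PN0 than at E15.5 in each strain, with a median of 0.74 in B6 and 0.92 in A/J. The shares of all probe sets were 24.4% higher and 26.6% lower in B6, and 25.2% and 25.8% in A/J. Tap1, the neighbor of Psmb9, rose by 0.78 ± 0.10 in B6 (limma adjusted p = 3.8e-08) and 0.99 ± 0.10 in A/J (adjusted p = 2.5e-10), and Tap2, the neighbor of Psmb8, by 0.87 in B6 and 0.97 in A/J. B2m, the light chain of class I, rose by 0.92 in B6 and 1.34 in A/J, and the interferon-induced factor Irf1 by 0.70 in B6 and 0.97 in A/J. The 3 that fell were Canx, Calr and Pdia3, chaperones of the endoplasmic reticulum with many other clients. Across birth, Irf1 (-0.30), Tapbp (-0.30) and B2m (-0.33) were called lower in A/J. In B6, Ifngr1, a chain of the interferon gamma receptor, was called higher (0.86), and Calr (-0.55) and Canx (-0.26) lower.

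Over the 12 group means, the median correlation between pairs of constitutive subunits was 0.824 (465 pairs), between the immunoproteasome genes 0.908 (3 pairs) and between an immunoproteasome and a constitutive gene -0.754 (93 pairs). Among the regulators, Psme1 correlated at 0.934 with the mean of the immunoproteasome and Psme3 at 0.873 with that of the constitutive subunits, Psme2 at 0.454 with the immunoproteasome mean and -0.07 with the constitutive mean, and Psmf1 at 0.466 with the immunoproteasome mean and 0.014 with the constitutive mean. These are Pearson correlations over the same 12 means, which share the arrays and the course of time, and are given as a description.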

How the data were processed

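RNA of whole right lungs was hybridised to Affymetrix Mouse Gene 1.0 ST arrays. The authors deposited log2 values after RMA, and the submitters' processing notes name Affymetrix Expression Console 1.1. The values were used as deposited. The 37 arrays were assigned by their titles. Arrays 2 and 2b of B6 E18.5 were averaged as 1 replicate, giving 36. The correlation of 2b with each other array of its group was 0.993, so its origin is not established. The genome build behind the probes is not given in the sources used here. The reference table gave 1 symbol to 21789 of 35556 probe sets, several to 1621 and none to 12146.

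limma 3.58.1 (R 4.3.3) fitted 12 group means to the 21789 probe sets (24 residual and 6.13 prior degrees of freedom), with Benjamini-Hochberg adjustment over all of them in each comparison and a threshold of 0.05. SE is moderated. The number of arrays limits the precision. The script was tested on simulated data.

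The members and lists were chosen with earlier results of these data known. Named genes are the immunoproteasome, catalytic, activator, inhibitor and tissue-specific members, the 5 other members that rose most and the 5 that fell most by the mean of both strains, and members called between strains at 3 or more times. Others named beside a step were chosen after their values were seen. Alternatives covered scaling, probe sets tested, dim probe sets, empirical Bayes settings, samples fitted, a fold of 1.5, array 2b, several probe sets of a gene, a replicate block and each replicate left out. Replicates with the same number in different groups did not deviate together (mean r = -0.00997 over 198 pairs), so none were paired.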

Additional observations from a re-analysis of the deposited data

Results flagged for a closer look

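The change from E15.5 to PN0 differed between B6 and A/J by limma's test of the difference for 2 of the 48 members. These were 1 higher and 1 lower in B6, beside 1.98% and 3.96% of all probe sets. Psmd8, a lid subunit, changed by 0.30 in B6 and -0.09 in A/J, a difference of 0.39 ± 0.10 (adjusted p = 0.0197). Psmb9, an immunoproteasome subunit, changed by 0.30 in B6 and 0.75 in A/J, a difference of -0.45 ± 0.14 (adjusted p = 0.0467). The call of Psmb9 was lost without any single one of 23 of the 36 replicates and that of Psmd8 without either of 2. Both were lost without the replicates of high heart, liver or upper airway markers. At E15.5 Psmd8 differed between B6 and A/J by -0.30, which passed the test, and in the PN0 lungs by 0.08, which did not. For Psmb9 the difference was 0.28 at E15.5 and -0.16 in the PN0 lungs, and neither passed.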

How the results depend on the processing

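The count of members called depended on the threshold and on single litters. The counts in this section stand without the share of all probe sets under the same setting, so they do not compare the members with the array. With a fold of 1.5 required besides the adjusted p, PN0 against E15.5 had 3 members higher and 7 lower in B6 and 4 higher and 7 lower in A/J. Under that rule A/J had 3 lower at E17.5, 1 higher at E18.5 and 2 higher at PN0 against E20.5, B6 had 1 lower than A/J at PN0, and every other count between neighboring times, between strains and for the difference of change that had been above 0 was 0. Leaving out dim probe sets gave 1 lower at A/J E16.5, 2 lower at A/J E20.5, 7 higher at B6 E18.5, 3 higher in B6 at E17.5, 2 higher and 4 lower for B6 E18.5 against A/J E19.5, and 2 higher for the difference of change. Empirical Bayes with trend and robust settings gave 1 lower at A/J E16.5, 3 lower at A/J E20.5 and 2 higher for the difference of change.

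Centring the arrays gave, against the time before, 8 higher and 2 lower at A/J E18.5, 12 lower at A/J E19.5, 0 lower at A/J E20.5 and PN0, 1 higher at B6 E17.5, 9 higher and 3 lower at B6 E18.5 and 2 lower at B6 PN0. Between strains it gave 7 lower in B6 at E17.5, 3 higher and 10 lower at E18.5, and 2 higher and 1 lower for B6 E18.5 against A/J E19.5. All probe sets tested gave 1 higher at A/J E19.5, 0 lower at A/J PN0, 2 lower at B6 PN0, 5 lower in B6 between strains at PN0 and 0 lower for the difference of change. Each strain fitted alone gave 0 higher at A/J E19.5, 0 lower at A/J E20.5 and PN0 and 0 higher at B6 E16.5. The replicate block gave 1 higher at A/J E19.5, 0 lower at A/J PN0 and 0 lower for the difference of change. It ended the calls of Psmb9 across birth (limma adjusted p = 0.0508 in B6 and 0.0543 in A/J), of Psmb8 at A/J E19.5 (0.0534) and of Psme2 between strains at PN0 (-0.38, 0.0521). That of Psme2 was ended also by 9 single replicates left out, by array 2b left out or as its own replicate, by all probe sets tested and without the 9 replicates of high markers (adjusted p = 0.0501 to 0.195). Array 2b left out gave 0 lower at A/J PN0 and for the difference of change, and as its own replicate it gave 2 higher in B6 at E18.5 and 5 lower for B6 E18.5 against A/J E19.5.

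Leaving out the 9 replicates with high heart, liver or upper airway markers was an alternative chosen after seeing the data. It leaves 1 replicate at A/J E20.5 and 1 at B6 E17.5, and comparisons with these groups are left out of the counts here. Elsewhere it gave 0 higher at A/J E19.5, 0 higher and 4 lower at B6 E16.5, and 2 lower at B6 PN0. Between strains it gave 1 lower in B6 at E15.5, 5 at E16.5, 3 lower at PN0, 1 lower for B6 E18.5 against A/J E19.5, and 0 in both directions for the difference of change.

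Leaving out each replicate in turn gave, lower, 0 to 2 at A/J E16.5, 13 to 23 at A/J E19.5, 0 to 2 at A/J E20.5, 0 to 1 at A/J PN0, 7 to 23 at B6 E16.5, 14 to 31 at B6 E17.5, 3 to 6 at B6 E18.5 and 1 to 4 at B6 PN0, and, higher, 0 to 2 at A/J E19.5, 0 to 1 at B6 E16.5, 1 to 3 at B6 E17.5 and 4 to 9 at B6 E18.5. Between strains the range was 1 to 4 lower at E15.5, 4 to 15 at E16.5 and 4 to 8 at PN0, 0 to 3 higher at E17.5 and 1 to 2 at E18.5, 1 to 2 higher and 1 to 3 lower for B6 E18.5 against A/J E19.5, and 0 to 2 higher and 0 to 1 lower for the difference of change. The median PN0 change of the 5 regulators ranged from -0.068 to 0.067 in B6, turning sign without B6 E15.5 replicate 2 (0.067) or B6 PN0 replicate 2 (0.022) or 3 (0.007), and from 0.087 to 0.282 in A/J, and that of the 7 chaperones in B6 from -0.538 to -0.358.

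Values near 0 that turned sign, or for Psmb1 reached 0, were, at PN0 against E15.5, Psme2 (-0.068 to 0.067), Psmb2 (-0.055 to 0.10) and Psmb1 (0.0 to 0.10) in B6 and Psma2 (-0.022 to 0.058) in A/J. Between strains at E18.5 they were Psmb10 (-0.148 to 0.045, and 0.033 centred), Psmb5 (-0.142 to 0.003), Psme1 (-0.036 to 0.092, and -0.037 with array 2b left out and -0.028 with it as its own replicate) and Psma8 (-0.445 to 0.14). For the PN0 lungs they were Psmb8 (-0.245 to 0.10, and 0.10 without the 9 replicates), Psmb6 (-0.048 to 0.047, -0.013 centred and -0.038 without the 9), Psme1 (-0.05 to 0.02), Psmd11 (-0.035 to 0.055) and Psmb2 (-0.095 to 0.06, and 0.028 without the 9). None of these was called with all replicates. The cause of these changes was not tested.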
